A study of Mus musculus with 2 samples.

Results

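The mitochondrial chromosome of the mouse carries 37 genes, of which 13 encode proteins, 2 encode ribosomal RNAs (rRNAs) and 22 encode transfer RNAs (tRNAs). They were taken as all annotated genes whose symbol begins with mt-, and they are 37 of the 43346 annotated genes measured. RNA was sequenced from adult cerebellum of C57BL/6J mice, an inbred laboratory strain, at 8 weeks of age, in 2 libraries numbered replicate 1 and replicate 2 that form 1 group with no treatment and no mutation. Each library came from tissue pooled over male and female littermates, and both carry the same donor record, so nothing states that they came from separate animals. The libraries were strand-specific and held RNA longer than 200 nucleotides, depleted of rRNA and selected for poly(A) tails, read from both ends over 101 bases. The design holds no contrast, so no p-value was computed, and differences between the libraries measure only the spread between these libraries, which may be technical.

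Mitochondria keep a small circular genome of their own, present in many copies per cell, that is transcribed from both strands into long precursors. The tRNAs lie between most of the other genes, and their excision releases the messenger RNAs and rRNAs, most of which then receive short poly(A) tails. The encoded proteins are membrane subunits of complexes I, III, IV and V of oxidative phosphorylation, the pathway that supplies most of the ATP of neurons, and every one of them assembles with subunits made from nuclear genes.

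Expected counts, which are estimated numbers of sequenced fragments per gene, summed to 79771873 over annotated genes in replicate 1 and 80281011 in replicate 2. Levels are given in TPM, a relative abundance in which each count is divided by the effective length, that is, the number of positions at which a fragment could start. They are also given as CPM per annotated kilobase, where CPM is the count scaled to a common total of gene counts, called the per-kilobase level here. Shares of counts carry 95% Wilson intervals of at most 0.00549 percentage points to either side, which cover counting error only. Markers of the main cerebellar cells were present, with Gabra6 of granule neurons at 336 TPM in replicate 1 and 269 TPM in replicate 2, and Pcp2 of Purkinje neurons at 1585 and 1349 TPM. Markers of the choroid plexus, a neighbouring tissue, were at least 2-fold higher in replicate 1 for 3 of 3 genes, including Ttr, a thyroxine carrier, at 2086 and 763 TPM. Of all genes compared between the libraries further on, 0.637% were 2-fold or more apart in either direction. In bulk tissue, fewer cells of a type and less RNA per cell cannot be told apart.

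Protein-coding genes held 88.5% of the mitochondrial counts in replicate 1 and 88.8% in replicate 2, and the 3 subunits of complex IV alone held about as many as all other classes together. Protein-coding genes took 5.05% of all counts on genes for replicate 1 and 5.26% for replicate 2. The 2 rRNAs took 0.657% and 0.664%. Of all mitochondrial counts, complex IV held 49.9% in replicate 1 and 48.8% in replicate 2, complex I with its 7 subunits held 21.2% and 22.0%, complex III with 1 subunit held 10.4% and 10.4%, and complex V with 2 subunits held 7.02% and 7.60%. The rRNAs held 11.5% and 11.2%, and the tRNAs held 0. These shares are not corrected for length. By gene order, 28 genes lie on the plus strand and 9 on the minus strand, namely mt-Nd6 and 8 tRNAs.

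No tRNA gene was counted in either library, so none can be ranked above the others. The 22 genes are 59 to 75 bases long, shorter than the RNA kept for the libraries and shorter than 1 read. Their deposited effective length was 0 in both libraries, so a count of 0 for them does not show that the tRNAs are absent from the tissue. The limit that 0 counts would allow, taken as 3 counts, was 3.76e-06% of counts on genes for replicate 1 and 3.74e-06% for replicate 2. With an effective length of 0 no fragment could be placed on these genes, so this limit sets no bound on the tRNAs. The longest, mt-Tl1, which decodes leucine (chrM:2676-2750, mm10, plus strand), and the shortest, mt-Ts2, which decodes serine (chrM:11613-11671, plus strand), show how far both fall below the size limit. These and the sequences further on are those of GENCODE M21 transcripts on mm10, written 5′ to 3′.
mt-Tl1: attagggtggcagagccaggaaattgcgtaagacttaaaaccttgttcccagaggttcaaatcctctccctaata
mt-Ts2: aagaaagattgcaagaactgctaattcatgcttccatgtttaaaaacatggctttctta

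The ATP synthase (complex V) subunits mt-Atp8 and mt-Atp6 share a transcript and reading frames that overlap by 43 bases, yet mt-Atp8 had the highest TPM of all 37 genes. Both encode parts of the membrane portion of the enzyme that carries protons. The sequence of mt-Atp8 (ENSMUSG00000064356.3, chrM:7766-7969, mm10, plus strand) shows how short the gene is, with the overlap with mt-Atp6 in capitals.
mt-Atp8: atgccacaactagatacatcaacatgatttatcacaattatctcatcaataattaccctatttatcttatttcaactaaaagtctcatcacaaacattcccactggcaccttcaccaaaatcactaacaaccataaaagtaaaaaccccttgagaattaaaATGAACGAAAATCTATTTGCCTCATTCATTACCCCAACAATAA
The gene held 81561 counts in replicate 1 and 94745 in replicate 2. Its effective length was 14.8 bases in replicate 1 and 12.7 in replicate 2, against an annotated length of 204, and its TPM was 103845 in replicate 1 and 133421 in replicate 2. That made mt-Atp8 alone 10.4% of all TPM in replicate 1 and 13.3% in replicate 2, while it held 0.102% and 0.118% of gene counts.

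On annotated length the excess of mt-Atp8 was small. The gene mt-Atp6 (ENSMUSG00000064357.1, chrM:7927-8607, plus strand) held 237693 counts in replicate 1 and 266911 in replicate 2, with TPM values of 9267 and 9924. In TPM, mt-Atp8 was 11.2-fold above mt-Atp6 in replicate 1 and 13.4-fold in replicate 2. In per-kilobase level, the same ratio was 1.15 and 1.18, with mt-Atp8 at 5012 and 5785 and mt-Atp6 at 4375 and 4882. Both libraries gave the same order on both scales for the 2 genes alone. With the counts of its chromosome 1 copy, described further on, mt-Atp6 stood at 6613 and 6856 in per-kilobase level, above mt-Atp8 in both libraries, so the order turned.

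Complex IV, cytochrome c oxidase, passes electrons to oxygen, and its 3 catalytic core subunits had the highest TPM of the mitochondrial genes after mt-Atp8. The largest subunit gene, mt-Co1 (ENSMUSG00000064351.1, chrM:5328-6872, plus strand), held 1449058 counts in replicate 1 and 1499374 in replicate 2, the most of any annotated gene by mean count. Its TPM was 20303 and 19917, or 20110 ± 273 (SD, n = 2). The gene mt-Co2 (ENSMUSG00000064354.1, chrM:7013-7696, plus strand), whose product takes electrons from cytochrome c, had 14696 TPM in replicate 1 and 13874 in replicate 2. The gene mt-Co3 (ENSMUSG00000064358.1, chrM:8607-9390, plus strand) had 14157 and 13675 TPM. The values of mt-Co2 and mt-Co3 overlapped between the libraries in TPM, while mt-Co1 was 1.38-fold above mt-Co2 in replicate 1 and 1.44-fold in replicate 2.

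The only mitochondrial subunit of complex III, cytochrome b, had nearly the same TPM in both libraries. The gene mt-Cytb (ENSMUSG00000064370.1, chrM:14145-15288, plus strand) had 9438 TPM in replicate 1 and 9401 TPM in replicate 2. Its counts were 473354 and 496608, the third highest by mean count among all annotated genes.

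Complex I, NADH dehydrogenase, takes electrons from NADH, and its 7 mitochondrial subunits form part of its proton-pumping membrane arm. As highest over lowest per-kilobase level, they covered the widest range of the complexes with more than 1 mitochondrial subunit. In mean TPM complex V covered a wider range, from 9595 to 118633, against 1099 to 6009 for complex I. The highest of complex I was mt-Nd1 (ENSMUSG00000064341.1, chrM:2751-3707), at 5711 TPM in replicate 1 and 6307 TPM in replicate 2. Next came mt-Nd4 (ENSMUSG00000064363.1, chrM:10167-11544) at 4666 and 5017 TPM and mt-Nd2 (ENSMUSG00000064345.1, chrM:3914-4951) at 4197 and 4156 TPM. The longest, mt-Nd5 (ENSMUSG00000064367.1, chrM:11742-13565), had 2579 TPM in replicate 1 and 2350 TPM in replicate 2. These 4 genes lie on the plus strand, and their order in TPM was the same in both libraries.

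The remaining 3 complex I genes, mt-Nd3, mt-Nd4l and mt-Nd6, lay close to 1000 TPM. Both mt-Nd3 (ENSMUSG00000064360.1, chrM:9459-9806, plus strand) and mt-Nd4l (ENSMUSG00000065947.3, chrM:9877-10173, plus strand) are short, and each has a near-identical copy on chromosome 1 that is described further on. The first 60 bases of mt-Nd3 and all of mt-Nd4l are shown since the copy holds 345 of the 348 bases of mt-Nd3 and 294 of the 297 of mt-Nd4l. In mt-Nd3 the capital marks the base that differs from the copy, and in mt-Nd4l the capitals mark the overlap with mt-Nd4.
mt-Nd3 (chrM:9459-9518): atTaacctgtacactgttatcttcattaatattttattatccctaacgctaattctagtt
mt-Nd4l: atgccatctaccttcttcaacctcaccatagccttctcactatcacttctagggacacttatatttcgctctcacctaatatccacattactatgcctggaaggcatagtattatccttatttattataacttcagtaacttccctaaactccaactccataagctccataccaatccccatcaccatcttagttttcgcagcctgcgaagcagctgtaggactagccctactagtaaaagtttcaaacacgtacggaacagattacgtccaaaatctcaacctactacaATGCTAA
The gene mt-Nd3 held 9046 counts in replicate 1 and 12293 in replicate 2, with 1124 and 1485 TPM. The gene mt-Nd4l held 6514 and 5399 counts, with 1211 and 987 TPM. The libraries differed in opposite directions for these 2 neighbours, lower in replicate 1 for mt-Nd3 and higher in replicate 1 for mt-Nd4l.

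Although mt-Nd4l and mt-Nd4 overlap by 7 bases and are made from one transcript, their levels without the copies were far apart. In TPM, mt-Nd4l stood at 0.260 of mt-Nd4 in replicate 1 and 0.197 in replicate 2. In per-kilobase level the ratio was 0.104 and 0.0757. With the counts of the chromosome 1 copy of each gene added, the per-kilobase level was 1413 in replicate 1 and 1251 in replicate 2 for mt-Nd4l, and 2656 and 2992 for mt-Nd4. In TPM, the copy of mt-Nd4l alone stood at 5164 in replicate 1 and 4603 in replicate 2. The gene mt-Nd4 stood at 4666 and 5017 TPM, and its own copy at 4.09 and 5.39. The gap between the genes thus depends on the scale and on the division of counts between gene and copy.

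The only protein-coding gene of the minus strand, mt-Nd6 (ENSMUSG00000064368.1, chrM:13552-14070), held 19101 counts in replicate 1 and 20650 in replicate 2. Its TPM was 1118 and 1159, or 1139 ± 28.3 (SD, n = 2). The plus-strand gene mt-Nd5, which ends inside mt-Nd6 on the opposite strand, was 2.31-fold above it in TPM in replicate 1 and 2.03-fold in replicate 2. The gene mt-Cytb, on its other side, was 8.44-fold and 8.11-fold above it in TPM, and mt-Co1 was 18.2-fold and 17.2-fold above it. These ratios describe molecules left after poly(A) selection, which may keep some RNAs better than others, so they are not the ratios in the tissue. In base composition mt-Nd6 also stood apart, with 28.1% G and 5.97% C in its coding strand, against 5.88% to 16.1% G and 22.1% to 29.97% C in the 12 plus-strand coding genes.

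Of the 2 rRNAs, the large one was the more abundant in both libraries. The large-subunit rRNA mt-Rnr2 (ENSMUSG00000064339.1, chrM:1094-2675, plus strand) had 5944 TPM in replicate 1 and 5731 TPM in replicate 2. The small-subunit rRNA mt-Rnr1 (ENSMUSG00000064337.1, chrM:70-1024, plus strand) had 2198 and 2126 TPM. The ratio of mt-Rnr2 to mt-Rnr1 was 2.70 in TPM in both libraries and 2.98 in per-kilobase level in both. It describes molecules left after rRNA depletion and poly(A) selection, so it is not the ratio in the tissue.

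**Figure D1:**
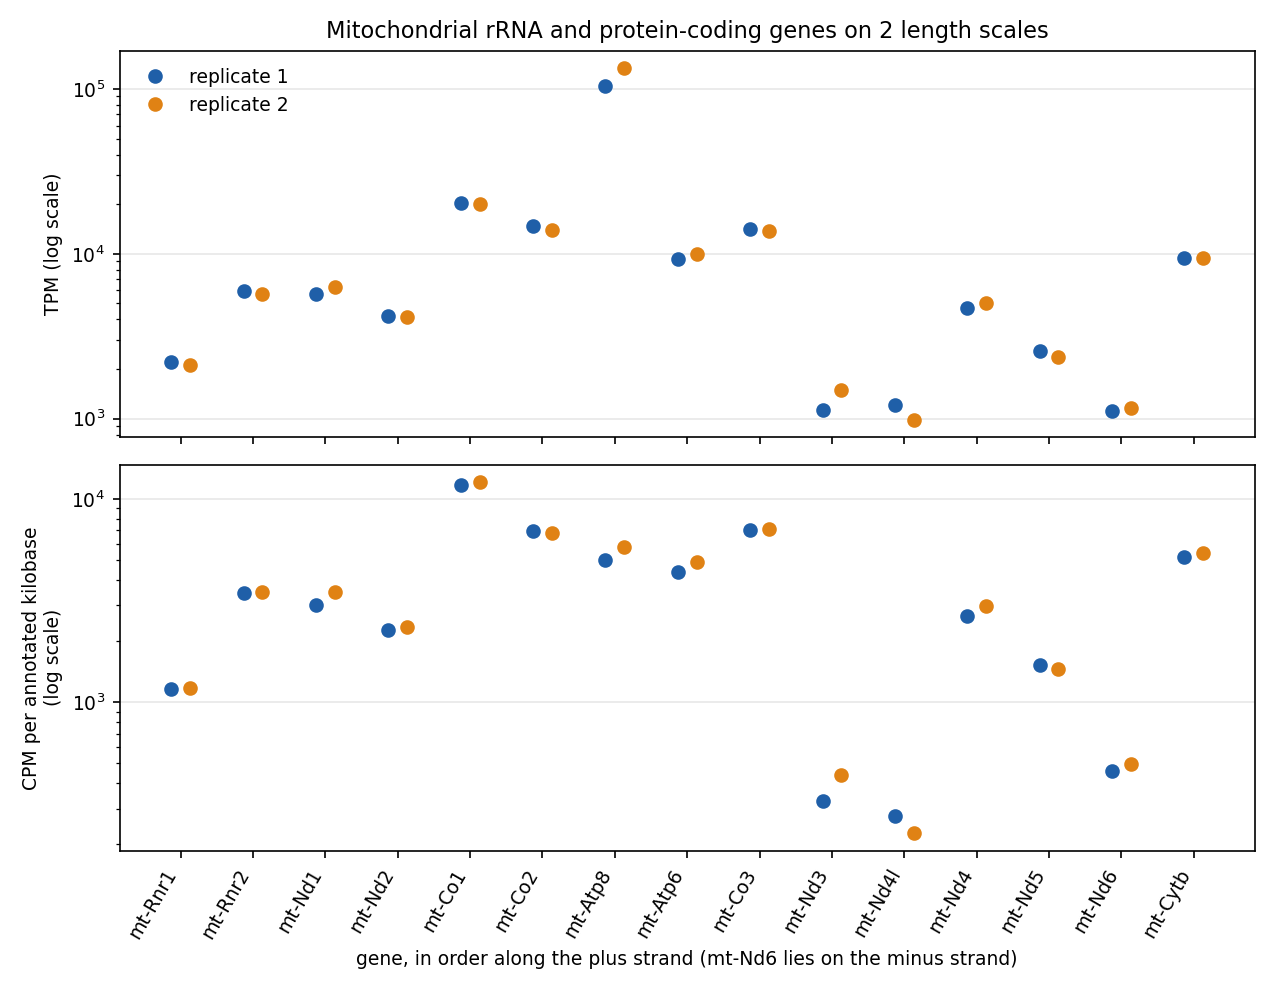
Levels of the 2 rRNA and 13 protein-coding genes in gene order, in TPM (upper panel) and as CPM per annotated kilobase (lower panel), both on log axes, with one point per library. The gene mt-Atp8 stands at 103845 and 133421 TPM in the upper panel and at 5012 and 5785, near mt-Atp6 and mt-Cytb, in the lower one.

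The order of the genes by per-kilobase level was largely kept between the libraries. By mean ± SD (n = 2), mt-Co1 at 11923 ± 234 was followed by mt-Co3 at 7069 ± 40.3 and mt-Co2 at 6895 ± 80.2. Below them mt-Atp8 at 5399 ± 547 and mt-Cytb at 5297 ± 156 did not differ beyond the range of the libraries, and mt-Atp6 followed at 4629 ± 358. The next pair, mt-Rnr2 at 3472 ± 25.9 and mt-Nd1 at 3244 ± 329, also overlapped. Then came mt-Nd4 at 2822 ± 237, mt-Nd2 at 2298 ± 57.2, mt-Nd5 at 1493 ± 48.0 and mt-Rnr1 at 1165 ± 9.18. The lowest were mt-Nd6 at 478 ± 24.2, mt-Nd3 at 383 ± 80.7 and mt-Nd4l at 251 ± 34.3, which did not overlap. These SDs cover the spread between libraries, not the division of counts between gene and chromosome 1 copy. The deposited posterior SD of the mt-Co3 count, described further on, was 14.8% of it in replicate 1 and 12.6% in replicate 2. With copies added, mt-Nd3 stood at 961 and 1022 and mt-Nd4l at 1413 and 1251. Both lay above mt-Nd6 at 461 and 496, so the order turned. With 2 libraries, the absence of overlap is a description and not a test.

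How far the 13 protein-coding genes spread depended on the length and on the copies. The highest stood 92.8-fold above the lowest in TPM in replicate 1 and 135-fold in replicate 2, with mt-Atp8 at the top. In per-kilobase level the spread was 42.8-fold and 53.4-fold, from mt-Co1 to mt-Nd4l. Over the 11 genes of at least 300 bases it was 18.2-fold and 17.2-fold in TPM, from mt-Co1 to mt-Nd6. With the counts of the chromosome 1 copies added, the spread in per-kilobase level was 29.1-fold and 27.7-fold, again from mt-Co1 to mt-Nd6.

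Of the 13 coding sequences, 10 end in a complete stop codon and 3 end in a lone T. In mitochondria the adenines of the poly(A) tail are known to complete such a stop codon. The last 30 bases of these 3 genes are shown with their final T in capitals, beside those of mt-Co1 and mt-Nd6, whose complete stop codon is in capitals.
mt-Co3 (chrM:9361-9390, plus strand): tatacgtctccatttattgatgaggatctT
mt-Nd4 (chrM:11515-11544, plus strand): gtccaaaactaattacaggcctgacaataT
mt-Cytb (chrM:15259-15288, plus strand): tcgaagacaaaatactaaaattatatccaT
mt-Co1 (chrM:6843-6872, plus strand): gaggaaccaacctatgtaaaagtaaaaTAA
mt-Nd6 (chrM:13552-13581, minus strand): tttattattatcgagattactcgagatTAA
The 3 genes with a lone T span mean per-kilobase levels of 2822 (mt-Nd4), 5297 (mt-Cytb) and 7069 (mt-Co3), inside the range of the 10 others, which runs from 251 for mt-Nd4l to 11923 for mt-Co1. The libraries were selected for poly(A), so these levels describe the RNA left after that selection, whose tails were not measured.

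A stretch of mitochondrial sequence inserted in chromosome 1 carries copies of 7 of the coding genes, and their counts were divided between the mitochondrial gene and its copy. The copies are annotated as unprocessed pseudogenes at chr1:24611535-24616197 (mm10, minus strand). Gm28661, Gm10925, Gm28437 and Gm10222 match mt-Co2, mt-Atp6, mt-Co3 and mt-Nd4l at 100% over 681, 678, 783 and 294 bases, and Gm28439 matches the first 876 bases of mt-Nd4 at 100%. Gm28438 differs from mt-Nd3 by 1 base, T3C, and Gm29216 from the last 483 bases of mt-Co1 by 1 base, A1066T, where positions are counted from the first base of the mitochondrial gene. Of mt-Atp8, only the 43 bases shared with mt-Atp6 occur in an annotated transcript of a copy. The gap between Gm28661 and Gm10925 on chromosome 1 is 233 bases, the same as the gap between the matched parts of mt-Co2 and mt-Atp6, which holds the rest of mt-Atp8. The search covered annotated transcripts only, so the sequence in that gap was not compared. No annotated nuclear transcript matched mt-Nd1, mt-Nd2, mt-Nd5, mt-Nd6, mt-Cytb or an rRNA at 99% or above.

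The division between gene and copy differed from pair to pair and, for some, between the libraries. Of the summed count of mt-Co2 and Gm28661, the mitochondrial gene held 83.8% in replicate 1 and 72.2% in replicate 2, with 73338 and 144275 counts placed on Gm28661. The mitochondrial gene held 33.9% and 43.1% of the pair for mt-Nd3, and 19.5% and 18.1% for mt-Nd4l. It held 66.2% and 71.2% for mt-Atp6, 71.7% and 73.5% for mt-Co3, 87.6% and 88.1% for mt-Co1, and 99.9% in both libraries for mt-Nd4. So the counts of mt-Nd3 and mt-Nd4l were smaller than those of their copies in both libraries, while the other 5 genes held more than their copies.

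The authors' deposited posterior SD of the count, which measures how firmly reads could be placed, was the same within 0.1 counts in gene and copy for 7 of 7 pairs in both libraries. For mt-Co3 it was 64953 counts in replicate 1 and 56497 in replicate 2, and for mt-Co2 it was 15719 and 30663. For mt-Atp6 it was 26194 and 23494. It was 0 in both libraries for mt-Nd1, mt-Nd5, mt-Nd6, mt-Cytb, mt-Atp8 and both rRNAs. The levels of mt-Co2, mt-Co3, mt-Atp6, mt-Nd3 and mt-Nd4l are therefore uncertain by the division between gene and copy. With the 7 copies included, the mitochondrial share of gene counts was 6.48% and 6.74%, against 5.70% and 5.93% for the 37 genes alone.

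**Figure D2:**
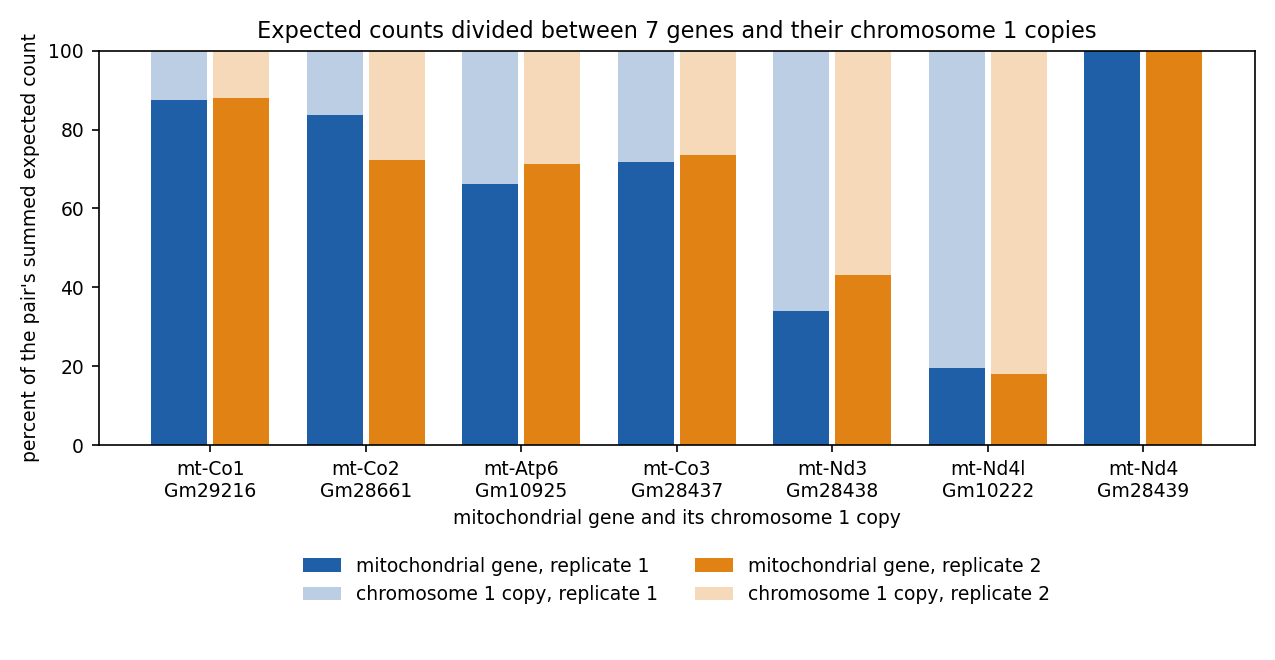
Share of each pair's summed expected count that was assigned to the mitochondrial gene (full colour) and to its chromosome 1 copy (pale), in percent, for replicate 1 (blue) and replicate 2 (orange). The gene's share runs from 18.1% for mt-Nd4l to 99.9% for mt-Nd4, and for mt-Co2 it is 83.8% in replicate 1 and 72.2% in replicate 2.

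Between the libraries no mitochondrial gene was 2-fold apart. The comparison used log2 ratios of counts, replicate 1 over replicate 2, after TMM scaling in edgeR, over the 15543 genes with at least 100 counts in both libraries together. Of the 15 mitochondrial genes tested, 0 were 2-fold or more apart, where 0.637% of all genes tested were. At 1.25-fold, a threshold chosen after the values were seen, 1 of 15 was apart, namely mt-Nd3 with a log2 ratio of -0.43, where 10.6% of all genes were. The 22 tRNA genes had no counts and were not tested.

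The 15 log2 ratios ran from -0.43 for mt-Nd3 to 0.28 for mt-Nd4l, with a median of -0.05, beside a median of 0.00 over all genes tested. Replicate 1 was the higher for 3 of 15 genes, mt-Nd4l, mt-Nd5 (0.07) and mt-Co2 (0.03). With ERCC spike-ins the median of the members was 0.01, with 8 of 15 genes higher in replicate 1, beside a median of 0.05 over all genes. With TPM plus 1 it was 0.01, with 9 of 15 higher, beside 0.06 over all genes. Relative to the median of all genes, the members' median was -0.05 with TMM, -0.05 with ERCC spike-ins and -0.04 with TPM plus 1. The rRNAs were near 0 at -0.01 each, while mt-Nd1 and mt-Atp8 stood at -0.20 each and mt-Nd4 at -0.17.

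With the counts of gene and copy added together, the ratios of the short genes moved towards 0 and that of mt-Co2 moved away from it. The log2 ratio was -0.09 for mt-Nd3 and 0.18 for mt-Nd4l, both smaller in size than for the gene alone. For mt-Co2 it was -0.19, against 0.03 for the gene alone, so its direction turned. For mt-Co3 it turned too, to 0.03, against -0.01 for the gene alone. The choroid plexus markers had a median log2 ratio of 1.39, those of granule neurons 0.24, and those of oligodendrocytes -0.33. Their part in the mitochondrial differences was not tested.

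**Figure D3:**
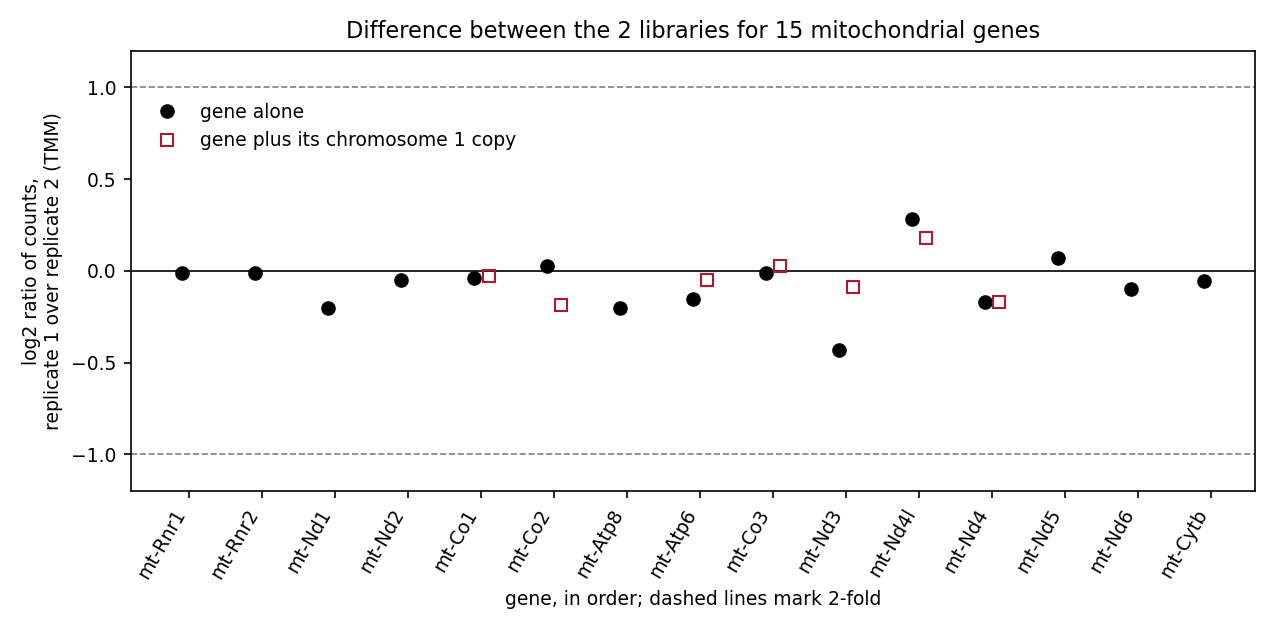
Log2 ratio of counts, replicate 1 over replicate 2, for the 15 counted mitochondrial genes in gene order, for the gene alone (black) and, for the 7 genes with a chromosome 1 copy, for gene and copy summed (red squares). Dashed lines mark 2-fold, and all points lie between -0.43 and 0.28.

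Subunits of the same enzyme complexes that are encoded in the nucleus had lower TPM in both libraries. In complex I, the median was 2579 TPM for the 7 mitochondrial genes in replicate 1 and 2350 TPM in replicate 2, against 182 and 178 TPM for 7 nuclear core subunits. Of these, Ndufs7 and Ndufv1 were the highest nuclear genes at 434 ± 15.8 and 208 ± 5.35 TPM, and Ndufs1, which carries iron-sulfur clusters, was the lowest at 109.9 ± 6.54 TPM (SD, n = 2). In complex III, mt-Cytb at 9438 and 9401 TPM stood against a nuclear median of 268 and 275 TPM over 6 genes, with Uqcrc1 at 439.5 ± 19.8, Cyc1, the cytochrome c1 gene, at 375 ± 22.0, and Uqcrfs1, the Rieske protein gene, at 152 ± 9.32 TPM (SD, n = 2).

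In complex IV, the median was 14696 TPM for the mitochondrial genes in replicate 1 and 13874 TPM in replicate 2, against 795 and 737 TPM for 9 nuclear genes. The highest of these were Cox4i1 at 1824 ± 33.9 TPM and Cox6a1 at 1481 ± 8.64 TPM, and the lowest was Cox7a2 at 382 ± 15.9 TPM (SD, n = 2). In complex V, mt-Atp6 at 9267 and 9924 TPM and mt-Atp8 both lay above all 10 nuclear genes, whose median was 469 TPM in replicate 1 and 480 TPM in replicate 2. Atp5b and Atp5a1, which encode the catalytic head of the enzyme, averaged 1415 ± 45.8 and 986 ± 71.9 TPM, and Atp5g2 was the lowest at 268 ± 11.01 TPM (SD, n = 2).

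The mitochondrial median was 14.1-fold above the nuclear one for complex I in replicate 1 and 13.2-fold in replicate 2. It was 35.2-fold and 34.2-fold above for complex III, and 18.5-fold and 18.8-fold for complex IV. All 13 mitochondrial genes lay above the highest nuclear gene listed for their complex. Each of the 4 nuclear lists had 0 genes that were 2-fold apart between the libraries, where 0.637% of all genes tested were. Their median log2 ratios lay between -0.04 and 0.05.

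**Figure D4:**
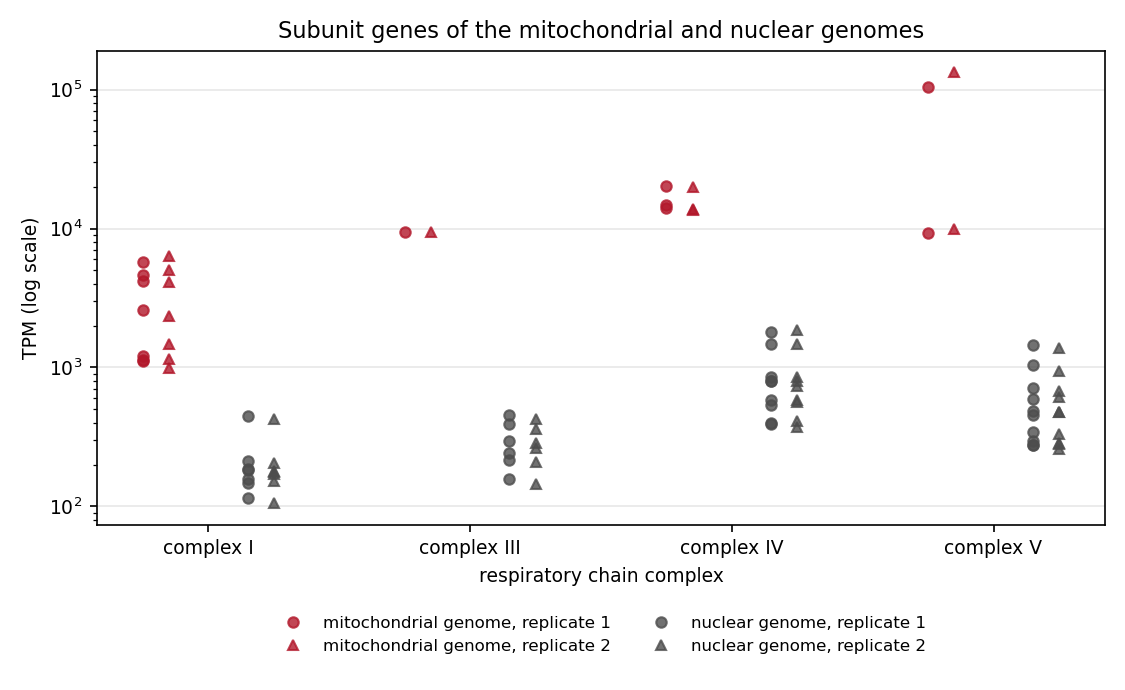
TPM on a log axis of subunit genes encoded in the mitochondrial genome (red, left) and in the nucleus (grey, right) for complexes I, III, IV and V, with circles for replicate 1 and triangles for replicate 2. The lowest mitochondrial gene of complex I, at 987 TPM in replicate 2, lies above the highest nuclear one listed, at 446 TPM in replicate 1.

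The nuclear genes that make and handle mitochondrial RNA had a lower median TPM than each list of nuclear subunit genes above. The 28 genes for transcription, processing and decay had a median of 13.9 TPM, against 180 TPM for the complex I list, the lowest of those medians. The highest were Fastk, a member of a protein family that acts on mitochondrial RNA, at 164.9 ± 12.5 TPM, and Grsf1, which binds G-rich RNA in mitochondrial granules, at 75.3 ± 1.17 TPM (SD, n = 2). The lowest was Mterf1b at 2.06 ± 0.240 TPM. The 9 genes that maintain mitochondrial DNA had a median of 7.87 TPM. Polg, the catalytic subunit of the mitochondrial DNA polymerase, had 48.8 TPM in replicate 1 and 45.2 TPM in replicate 2. Ssbp1, the single-stranded DNA binding protein, had 28.6 and 29.3 TPM, and Primpol had 2.62 and 1.63 TPM. In both lists 0 genes were 2-fold apart between the libraries, where 0.637% of all genes tested were. The median log2 ratios were 0.01 and 0.03.

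A second set of deposited tables, made on the mm9 assembly from both replicates together, gives contigs, which are stretches of continuous coverage on each strand. The start and end of 37 of 37 genes were the same in the mm9 and mm10 annotations. The mitochondrial chromosome held 6 contigs of 818912 in all, with 2.78% of their aligned bases. On the plus strand, chrM:1-6943 (mm9) had a coverage signal of 2720, the ninth highest of all contigs, and chrM:10502-16299 had 1500. The signal is the authors' own scale, and their median over all contigs was 0.071.

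Between these blocks the plus-strand signal was below 1. The contig chrM:7020-7699, over mt-Co2, had a signal of 0.553 with 18190 aligned bases. The contig chrM:7768-10470, over mt-Atp8, mt-Atp6, mt-Co3, mt-Nd3, mt-Nd4l and the start of mt-Nd4, had 0.433 with 56578 aligned bases. The block at chrM:1-6943 had 912831641 aligned bases, and that at chrM:10502-16299 had 420000904. No contig covered mt-Tk. Of the 7 coding genes touched by the low contigs, 6 have a chromosome 1 copy of at least 99% identity, and mt-Atp8 lies mostly over the 233-base gap between annotated copies, whose sequence was not compared. The match was not complete. The last 483 bases of mt-Co1, matched by Gm29216, lie in the block with a signal of 2720. Part of the first 876 bases of mt-Nd4, matched by Gm28439, lies in the block that starts at chrM:10502.

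The chromosome 1 copies were covered in the same table. Gm10222, the copy of mt-Nd4l, lies at chr1:24619243-24619539 on mm9. Within 5000 bases of it, 3 minus-strand contigs had a signal above 1, at 4.63, 1.32 and 3.93, and together they held 891160 aligned bases, 11.9-fold those of the low mitochondrial contigs (74768). They span 3285, 728 and 577 bases, against 3383 for the low mitochondrial contigs together. The contigs were not matched by sequence, so the fold compares totals and not depth over the same bases. A plus-strand contig within the same 5000 bases had a signal of 5.91. The mm9 gene table lists an RPKM of 0 in both replicates for 37 of 37 mitochondrial genes, while it lists Gm10222 at 286 RPKM in the replicate numbered 1 and 258 RPKM in that numbered 2. The zeros are listed values: 43024 of 61310 other genes were above 0 in both. The gene table names the mitochondrial chromosome chrMT, while the contig and junction tables name it chrM. The part that this naming, or reads matching more than 1 place, had in these values was not tested.

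The minus strand held little of the contig coverage. It held 2 contigs, chrM:9670-10054 with a signal of 0.330, opposite mt-Nd3, mt-Tr and mt-Nd4l, and chrM:10343-10586 with 0.047, opposite mt-Nd4, and 6709 of 1332914022 aligned bases together. By signal times length, the minus strand took 0.000502% of the coverage in the chromosome's contigs. Reads outside contigs do not enter this share, and the junctions described further on held 279 reads on the minus strand. Of the 9 minus-strand genes, 0 had a contig on their own strand. The gene mt-Nd6, with 19101 and 20650 counts in the mm10 tables, therefore had no contig on its strand in the mm9 table and lay opposite the plus-strand block with a signal of 1500. The cause of this difference between the tables was not tested.

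**Figure D5:**
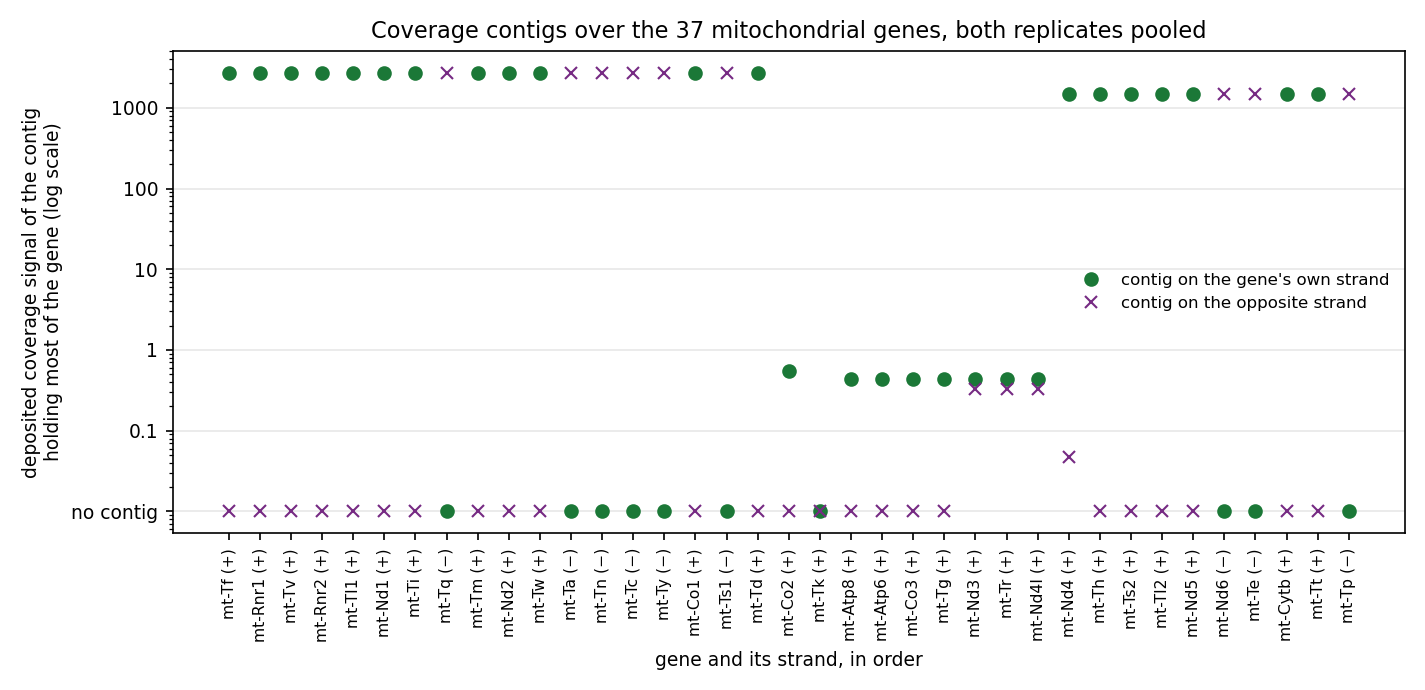
Deposited coverage signal, on a log axis, of the mm9 contig that overlaps each of the 37 genes by the most bases. Green circles mark the gene's own strand and purple crosses the opposite strand, with genes lacking a contig at the bottom. The contig covers only 2.86% of mt-Td on its own strand, and 39.4% of mt-Nd3 and 17.7% of mt-Nd4 on the opposite strand. Genes from mt-Co2 to mt-Nd4l, except mt-Tk with no contig, have signals of 0.433 or 0.553 on their own strand, against 2720 and 1500 on either side, and mt-Nd6 has none.

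Mitochondrial genes have no introns, and the mm9 junction table listed few spliced reads on them. It held 2164 junctions with 5660 reads on the mitochondrial chromosome, or 0.0073% of all junction reads, and 0 of these junctions were annotated. Of them, 1373 (63.4%) rested on 1 read, and 236 had reads in both replicates. The plus strand held 5381 reads and the minus strand 279. By replicate number, which names no library in this table, the reads were 2775 for the one numbered 1 and 2885 for that numbered 2.

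Most of these gaps lay within 1 gene. Junctions with both ends in the same rRNA or coding gene held 4704 reads, or 83.1%, and 1212 junctions spanned under 200 bases. The gene mt-Co1 held 2143 reads (37.9%) and mt-Cytb 575 (10.2%). The leading junction, chrM:6458-6518 (mm9, plus strand) in mt-Co1, removed 61 bases and had 390 reads for the replicate numbered 1 and 401 for that numbered 2. Together with others whose ends both lay within 20 bases of its own, 43 junctions held 1443 reads, 25.5% of those on the chromosome, with 697 and 746 by replicate number. The next outside that group, chrM:14428-14538 in mt-Cytb, had 68 and 46 reads. No mm9 sequence was used here, so the bases at these gaps are not shown.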

How the data were processed

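Poly(A) RNA from adult mouse cerebellum was measured in 2 libraries of 1 group. Per the file headers, the mm10 tables give for each gene an expected count, a TPM and a posterior mean TPM computed by the authors over all entries, and deposited scores for effective length and posterior SD. No aligner or quantification program is named in these sources. The deposited mm9 tables give a coverage signal and aligned bases per contig, read counts per junction, a fraction from 0 to 1 that is the authors' irreproducibility value, and other text holding RPKM. Expected counts were rounded to whole numbers for the ratios, which used edgeR 4.0.16 in R 4.3.3 with TMM scaling, a prior count of 2 and at least 100 counts over both libraries. DESeq2 1.42.0 size factors were an alternative. Spike-in, phiX and tRNA entries stayed out of gene counts; genes took 96.0% of all counts in replicate 1 and 95.3% in replicate 2. Identity to nuclear transcripts came from blastn 2.17.0 against GENCODE M21 with a word size of 28. The ratio step was tested on simulated counts. The members and gene lists were chosen with earlier results of these data known. All 37 members are named, the tRNAs by their range, with the 2 highest genes and the lowest of each list of other genes.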

Additional observations from a re-analysis of the deposited data

How the results depend on the processing

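No paired analysis was possible because the 2 libraries form 1 group. Of 35 alternatives, 22 left the result on the same side or within the spread between the libraries. The 22 include the settings that left out 1 library. With 2 libraries, each lies within 1 SD of their mean by construction, so those settings say nothing about stability. The mitochondrial share of gene counts was 5.82% as a mean, 5.56% over all entries, and 6.61% with 6 or with 7 chromosome 1 copies added. Leaving out a library gave 5.70% to 5.93%. The share of TPM was 21.5% as a mean, 12.1% with annotated length in place of effective length, 9.53% without members under 300 bases, and 24.9% with the copies, and it was 20.05% to 22.95% with 1 library. The spread of the 13 coding genes was 114-fold in TPM, 48.1-fold per annotated base, 17.7-fold in TPM over members of at least 300 bases, 31.8-fold over those per annotated base, and 28.4-fold per annotated base with copies, and it was 92.8-fold to 135-fold with 1 library. The median log2 ratio of members was -0.05 and turned direction with TPM plus 1 (0.014) and with ERCC scaling (0.0075). Both scalings shifted the median of all genes by about as much, to 0.058 and 0.055, and relative to it the members' median was -0.05 as reported, -0.04 with TPM plus 1 and -0.05 with ERCC scaling. The minus-strand share of contig coverage was 0.000461% with an irreproducibility value of 0.1 or lower, which leaves out 1 contig. The settings with copies summed per gene, with 7 copies, and per annotated base over the longer members were chosen after seeing the data. The number of members 2-fold apart stayed at 0 under 6 alternatives. The cause of these shifts was not tested beyond the length and the counts each setting uses. With 2 libraries, an SD is only a rough measure of the spread.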
